A study of Mus musculus with 9 samples.

Results

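Cells of the embryonic mouse forebrain that received GemC1 were compared directly with cells that received Mcidas. The comparison rests on 6 of the 9 libraries of the series, the 3 titled GemC1 and the 3 titled Mcidas, chosen by their labels and not by any measured value. The 3 libraries of the H2B-GFP group serve as the background. All 9 libraries were made from GFP+ cells sorted from embryos at E16.5 (the embryonic day), of the strain given as C57Bl6DBa2. Plasmids had been electroporated in utero at E14.5, 2 days earlier. The GemC1 group carried pCAGGS-GemC1, the Mcidas group carried the plasmid spelled pCAAGS-Mcidas, and H2B-GFP marked the electroporated cells in the series. The plasmid name pCAGGS denotes a strong, ubiquitous promoter that is not restricted to a cell type. The labels do not say whether the 3 libraries of a group came from separate litters, and p-values therefore measure the spread between these libraries, part of which may be technical. The Mcidas libraries carry another year in their deposited identifiers than the GemC1 and GFP libraries, so year and factor cannot be told apart in the direct comparison.

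GemC1, encoded by Gmnc, and Mcidas (multicilin) are relatives of geminin, the inhibitor of DNA replication licensing. Neither binds DNA alone: both work in complexes with the E2F family members E2F4 or E2F5 and a DP partner at the promoters of genes for centriole amplification and motile cilia. In ependymal cells, the multiciliated cells that line the brain ventricles, GemC1 acts early and Mcidas and the forkhead factor Foxj1 act after it. In cycling cells the same E2F letters mark promoters of replication genes. In replication licensing, a separate step, the proteins Cdt1 and Cdc6 load the MCM helicase, and geminin blocks Cdt1.

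The promoters of Cdt1 and Lig1 are shown because Cdt1 was the only replication gene called between the factors and Lig1, the DNA ligase that joins Okazaki fragments, stood next to it. Each window runs from 250 bases before to 50 bases after the annotated start (RefSeq, GRCm38.p6), on the strand of the gene. Capitals mark a match to 1 of 4 E2F-type motifs, TTTCCCGC, TTTGGCGC, TTTCGCGC or TTTGCCGC, searched on both strands. The Cdt1 window lies at chr8:122567765-122568064 (+) and holds TTTGGCGC from base 283. The Lig1 window, 1 of 3 for that gene, lies at chr7:13278576-13278875 (+) and holds TTTCGCGC on the opposite strand from base 277.
Cdt1: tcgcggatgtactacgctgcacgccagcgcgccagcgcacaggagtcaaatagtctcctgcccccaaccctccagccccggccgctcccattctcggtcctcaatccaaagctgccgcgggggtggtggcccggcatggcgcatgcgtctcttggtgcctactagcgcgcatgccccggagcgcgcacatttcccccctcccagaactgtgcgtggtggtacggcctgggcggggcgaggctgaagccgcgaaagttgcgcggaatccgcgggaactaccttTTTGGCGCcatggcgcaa
Lig1: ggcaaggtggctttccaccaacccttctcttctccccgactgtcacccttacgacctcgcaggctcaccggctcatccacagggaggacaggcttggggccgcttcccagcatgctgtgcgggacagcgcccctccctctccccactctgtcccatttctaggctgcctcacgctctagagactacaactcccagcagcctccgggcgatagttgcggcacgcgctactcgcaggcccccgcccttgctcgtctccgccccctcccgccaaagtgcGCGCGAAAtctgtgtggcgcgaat
Of all 32851 such windows 744, or 2.26%, hold a match. Of the called genes that have a window, Cdt1 alone had one.

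Total counts ran from 28515241 to 30288663 in the GemC1 libraries, from 22914704 to 34860313 in the Mcidas libraries and from 34417359 to 41163917 in the GFP libraries. Levels below are CPM, counts brought to one library size with the TMM factors of edgeR, and values for a group are given in the order of replicates 1, 2 and 3. A principal component analysis of the 6 libraries separated the factors on its first axis, with 24.6% of the variance: the GemC1 libraries stood at -12.76, -40.92 and -40.48 and the Mcidas libraries at 37.57, 30.04 and 26.54. Mcidas replicate 1 stood apart on the first axis of all 9 libraries, at -6.638 against -43.67 and -51.56 for the other two. Cytosolic ribosomal protein genes took 0.707% to 0.787% of the counts in GemC1 libraries, 0.625% to 0.648% in Mcidas libraries and 0.631% to 0.727% in GFP libraries, and what part this has in any difference below was not tested. The progenitor genes Pax6 and Sox2, the intermediate progenitor gene Eomes and the young-neuron gene Dcx were detected in each of the 6 libraries, with Dcx at 797.8 to 910.3 CPM under GemC1 and 906.5 to 1041 CPM under Mcidas. Transcripts of young neurons were thus present in cells labelled as progenitors. The Y-linked gene Ddx3y was at 32.9, 5.79 and 19.9 CPM under GemC1 and 31.4, 24.9 and 55.9 CPM under Mcidas. Xist, of the inactive X chromosome, was at 157, 365.6 and 181.9 CPM under GemC1 and 273.9, 319.9 and 103.1 CPM under Mcidas. Both were chosen after their values were seen. The mix of male and female cells thus differed between libraries of a group, and its part in any difference below was not tested.

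Each plasmid gene was highest in the libraries labelled with it. Gmnc (ENSMUSG00000068428) was at 290.8, 223.1 and 317.1 CPM in the GemC1 libraries and at 0.259, 0 and 0.26 CPM in the Mcidas libraries, where 9, 0 and 6 reads were counted. No read of it was counted in the 3 GFP libraries. The fitted log2 difference, GemC1 minus Mcidas, was 10.67 ± 0.34 (SE), with an adjusted p of 3.77e-07. Mcidas (ENSMUSG00000074651) was at 387.2, 507.2 and 596.4 CPM in its own libraries and at 76.7, 60.2 and 73 CPM in the GemC1 libraries, against 0.646 to 0.689 CPM with GFP. Its log2 difference between the factors was -2.83 ± 0.14 (adjusted p = 1.05e-06), and between GemC1 and GFP it was 6.71 ± 0.21 (adjusted p = 4.79e-09). The factors were thus unequal: the GemC1 libraries held transcripts of both, and the Mcidas libraries held little beyond their own. Reads from a plasmid and from the endogenous gene cannot be told apart in these counts.

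Between the factors 10 of 19572 genes tested (0.0511%) were called by edgeR's quasi-likelihood test at a Benjamini-Hochberg adjusted p under 0.05, with all 9 libraries in the fit. Of these, 3 (0.0153%) were higher under GemC1, namely Gmnc, Fosb and Gm10800. The other 7 (0.0358%) were higher under Mcidas: Mcidas itself, Cdt1, St6gal2, Gabra2, Ina, Ttc9 and Zfp708. At an unadjusted p under 0.05 there were 2551 genes (13%), 1246 higher (6.37%) and 1305 lower (6.67%) under GemC1. The libraries of the factors did not overlap, with GemC1 above, in 1776 genes (9.07%) and, with GemC1 below, in 1496 (7.64%). Against GFP, the same fit called 3.86% of genes higher and 1.32% lower for GemC1 and 4.03% higher and 0.327% lower for Mcidas, and both contrasts share the 3 GFP libraries. The number of calls between the factors moved with the analysis. DESeq2 called 193 genes higher (1.27% of the 15249 with an adjusted p) and 305 lower (2%). With no filter on low counts, edgeR called 66 higher and 129 lower. With the trend on GC content removed, the split was 4 higher and 5 lower. Leaving out 1 library gave between 4 calls, without Mcidas replicate 2, and 13, without Mcidas replicate 3.

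**Figure D1:**
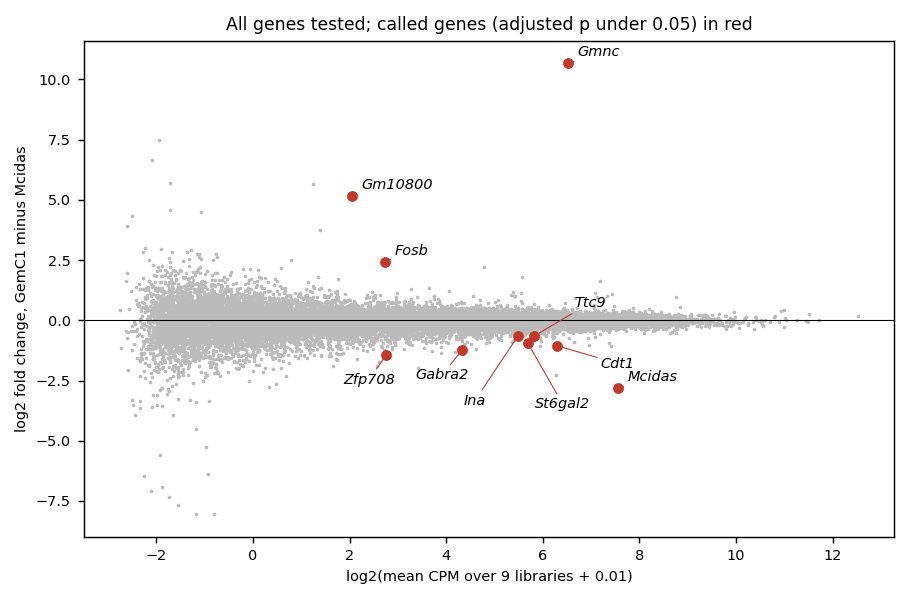
Every gene tested, with the log2 of its mean CPM over 9 libraries plus 0.01 on the x axis and its log2 fold change, GemC1 minus Mcidas, on the y axis. The 10 called genes are red and named, among them Gmnc at 10.67 and Mcidas at -2.83. Some genes that were not called, at low levels, lie further from 0 than Mcidas, such as Slc12a1 at -8.04 and Ccl2 at 5.70.

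The licensing factor Cdt1 (ENSMUSG00000006585, chr8:122568015-122573554, + strand, GRCm38) was higher with both factors than with GFP and highest with Mcidas. Its level was 66.5, 66.5 and 72.4 CPM under GemC1, 142, 132.6 and 155 CPM under Mcidas and 29.7, 27.9 and 18.3 CPM with GFP. No library of any group overlapped another group. The log2 difference between the factors was -1.06 ± 0.14 (95% interval -1.38 to -0.75, adjusted p = 0.0234). Against the same 3 GFP libraries, GemC1 stood at 1.43 ± 0.15 (adjusted p = 8.47e-05) and Mcidas at 2.5 ± 0.15 (adjusted p = 1.11e-06). The call between the factors was lost when 1 library was left out, at an adjusted p of 0.0824, 0.115 and 0.0689 without GemC1 replicates 1, 2 and 3 and of 0.0874 and 0.0876 without Mcidas replicates 2 and 3, while the difference stayed between -1.12 and -1.0. The Gm20388 gene model covers all 5540 bases of Cdt1 on the same strand, and how reads in both were counted is not given in the sources used here.

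Cdt1 was the only replication gene called between the factors. Of 78 licensing and G1/S genes tested, 0 were called higher under GemC1 and 1, Cdt1, lower, and the median log2 difference was 0.06, against -0.00 over all genes. Above 0 were 49 of the 78 (62.8%, against 49.4% of all genes), so most members leaned the other way from Cdt1. At an unadjusted p under 0.05 there were 18 higher and 7 lower (6.37% and 6.67% of all genes). The libraries did not overlap in 17 members with GemC1 above and 7 with GemC1 below (9.07% and 7.64% of all genes). Next in order came Lig1, at 87.8, 95.9 and 92.6 CPM under GemC1 and 133.9, 127.9 and 124.7 CPM under Mcidas. The GFP libraries held 73.8, 63.3 and 56.8 CPM of Lig1, below every library of either factor. Its difference of -0.48 ± 0.10 missed the threshold in edgeR (adjusted p = 0.118) and passed it in DESeq2 (adjusted p = 0.00111).

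Of the 7 members that lay lower under GemC1 with no overlap, 2 more were chosen after their values were seen: Hells, a chromatin remodeller of replicating cells, at -0.66 ± 0.15 (adjusted p = 0.138), and Mcm3, a helicase subunit, at -0.38 ± 0.10 (adjusted p = 0.188). Cdc6, which loads the helicase together with Cdt1, went the other way, at 20.1, 21.5 and 23.3 CPM under GemC1 and 19.2, 12.2 and 9.61 CPM under Mcidas. Its difference of 0.66 ± 0.22 was not called (adjusted p = 0.245). Geminin (Gmnn), the inhibitor of Cdt1, was at 17.1, 21.2 and 17.4 CPM under GemC1 and lower in every Mcidas library (0.36 ± 0.17, adjusted p = 0.401). The helicase subunit Mcm2 differed by -0.12 ± 0.10 (adjusted p = 0.664), and the ribonucleotide reductase subunit Rrm2, chosen after its values were seen, by 0.43 ± 0.11 (adjusted p = 0.175).

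Replication genes with and without the E2F-type letters had overlapping differences between the factors. A promoter window was present for 62 members, and 26 of them held a match. Those 26 had a median log2 difference of 0.01 (from -1.06, Cdt1, to 0.66, Cdc6), and 11 were lower under GemC1. The 36 without a match had a median of 0.06, and 13 were lower. No E2F gene was called between the factors: E2f1 stood at 0.30 ± 0.11 (adjusted p = 0.286), E2f4 at 0.08 ± 0.13 (adjusted p = 0.836), E2f5 at 0.21 ± 0.16 (adjusted p = 0.616) and the repressor E2f8 at -0.07 ± 0.18 (adjusted p = 0.912). The repressor E2f7 was at 78.1 to 87.6 CPM under GemC1, 79.1 to 105.6 CPM under Mcidas and 23.3 to 25.4 CPM with GFP (-0.22 ± 0.11 between the factors, adjusted p = 0.429).

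Fosb (ENSMUSG00000003545), a subunit of the AP-1 transcription factor that stimulated cells transcribe within minutes, was the largest called difference outside the plasmid genes and Gm10800. Its level was 10.6, 12 and 12.5 CPM under GemC1, 2.04, 3.04 and 1.34 CPM under Mcidas and 6.55, 5.94 and 5.81 CPM with GFP. The 3 groups did not overlap, and GFP lay between the factors. The log2 difference was 2.43 ± 0.26 (95% interval 1.87 to 3.0, adjusted p = 0.00277). Against the shared GFP libraries, Fosb rose under GemC1 by 0.94 ± 0.24 (adjusted p = 0.0449) and fell under Mcidas, at -1.49 ± 0.26 (adjusted p = 0.00341). It stayed called under each of 18 alternatives, with adjusted p up to 0.0261.

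The wider immediate early list leaned the same way, with Fosb its only call. Of 44 genes tested 32 lay above 0 (72.7%, against 49.4% of all genes), with a median of 0.23. At an unadjusted p under 0.05, 15 were higher under GemC1 and 2 lower, where 6.37% and 6.67% of all genes were. DESeq2 called 9 higher and 0 lower, where it called 1.27% and 2% of all genes. Fos, the founding AP-1 member, was at 223.6, 210 and 265.7 CPM under GemC1 and at 44, 88.7 and 94.7 CPM under Mcidas, with GFP at 165.5, 130.8 and 86.8 CPM. The factors did not overlap, and the lowest GFP library lay within the Mcidas range. Its difference of 1.62 ± 0.29 was not called by edgeR (adjusted p = 0.118) and was called by DESeq2 (adjusted p = 0.000806).

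Egr1, a zinc-finger factor of the same early wave, was at 521, 543.8 and 769.5 CPM under GemC1, 272.2, 316.3 and 351.9 CPM under Mcidas and 416.1, 431.7 and 295.8 CPM with GFP (0.96 ± 0.17, adjusted p = 0.109). Ier2, Jund and Ppp1r15a, chosen after their values were seen, were also higher in every GemC1 library than in any Mcidas library, at 0.94 ± 0.18, 0.49 ± 0.11 and 0.51 ± 0.12 (adjusted p = 0.118, 0.147 and 0.137). Junb overlapped, at 27.2, 16.3 and 29.4 CPM under GemC1 and 10.8, 15 and 19 CPM under Mcidas (0.71 ± 0.24, adjusted p = 0.246). The medians of the list by library, as deviations from the mean of the 6, were 0.17, -0.00 and 0.27 under GemC1 and -0.27, -0.16 and -0.04 under Mcidas.

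**Figure D2:**
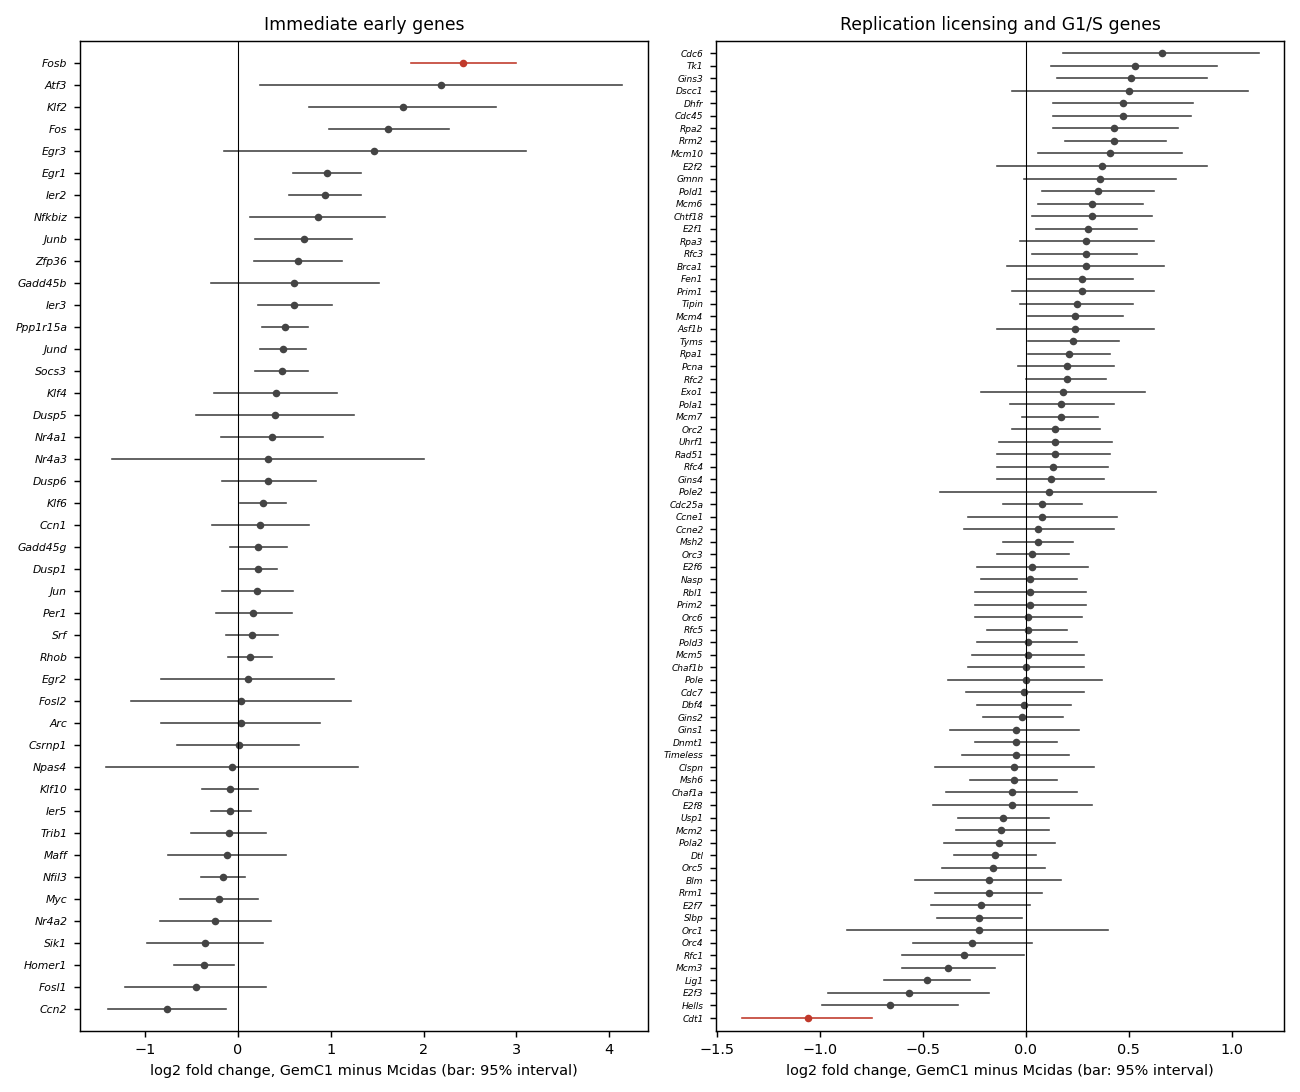
Log2 fold change, GemC1 minus Mcidas, of each tested immediate early gene (left) and licensing or G1/S gene (right), with its 95% interval on a log2 axis. Called genes are red: Fosb at 2.43 heads the left panel and Cdt1 at -1.06 ends the right one, and most other intervals touch or lie near 0.

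Markers of microglia lay on the same side as the immediate early genes. The microglia list, 27 genes tested, had a median difference of 0.84, with 24 above 0 and 0 called. Its summed level was 177.6, 132.5 and 158.7 CPM under GemC1, 98.8, 128.9 and 115.4 CPM under Mcidas and 93.4, 95.2 and 61.7 CPM with GFP, and no member was at 0 in all 6 libraries. The defining genes were low: P2ry12 at 2.54 to 5.46 CPM under GemC1 and 1.58 to 2.1 CPM under Mcidas (1.07 ± 0.43, adjusted p = 0.315), and C1qb at 3.45 to 5.99 and 1.9 to 4.2 CPM (0.52 ± 0.34, adjusted p = 0.552). The interferon response list overlapped, with summed levels of 160.3 to 343.7 CPM under GemC1 and 171.3 to 258.6 CPM under Mcidas. Of 21 heat shock and stress genes, 0 were called and 18 lay above 0, with a median of 0.16. The part of these in the Fosb and Fos values was not tested. In bulk libraries such as these, fewer cells of a type and less RNA per cell cannot be told apart.

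Of the other called genes, St6gal2, Gabra2, Ina and Ttc9 were lower under GemC1 than under Mcidas, with log2 differences from -1.25 to -0.65. St6gal2 (ENSMUSG00000024172), a sialyltransferase that caps glycans with sialic acid, was at 30.9, 31.3 and 41.1 CPM under GemC1 and at 66.5, 69.1 and 65.3 CPM under Mcidas, with GFP at 51, 52 and 58.9 CPM. The difference was -0.96 ± 0.12 (95% interval -1.22 to -0.70, adjusted p = 0.0106). Against GFP, St6gal2 fell under GemC1 (-0.65 ± 0.12, adjusted p = 0.00657) and was not called under Mcidas (0.31 ± 0.12, adjusted p = 0.243). The call between the factors was lost without GemC1 replicate 2 (adjusted p = 0.0518), without Mcidas replicate 2 (adjusted p = 0.0874) and without the GFP libraries in the fit (adjusted p = 0.0534).

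Gabra2 (ENSMUSG00000000560), the alpha 2 subunit of the GABA-A receptor, was at 13.7, 11.7 and 10.2 CPM under GemC1 and at 24.3, 37.2 and 22.8 CPM under Mcidas, with GFP at 18.9, 20.9 and 20.6 CPM (-1.25 ± 0.19, adjusted p = 0.0431). Ina (ENSMUSG00000034336), the neurofilament protein alpha-internexin, was at 36.9, 35.7 and 31.7 CPM under GemC1 and at 52.5, 54.9 and 56.2 CPM under Mcidas (-0.65 ± 0.10, adjusted p = 0.0446). Ttc9 (ENSMUSG00000042734), a tetratricopeptide repeat gene, was at 48, 39.2 and 40.9 CPM under GemC1 and at 66.4, 64.6 and 70 CPM under Mcidas (-0.65 ± 0.10, adjusted p = 0.0431). All 3 genes separated the factors without overlap, and all 3 sat close to the threshold. Of 18 alternatives, 12 ended the call of Gabra2 and 13 each those of Ina and Ttc9, among them the loss of any 1 GFP library. With a library left out, adjusted p ran from 0.0366 (without Mcidas replicate 3) to 0.14 (without GemC1 replicate 2) for Gabra2, from 0.0527 (without Mcidas replicate 1) to 0.251 (without Mcidas replicate 2) for Ina and from 0.0205 (without GemC1 replicate 1) to 0.157 (without Mcidas replicate 2) for Ttc9. An opposite-strand gene, Nt5c2, overlaps Ina by 456 bases, and the library kit does not mark strand.

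**Figure D3:**
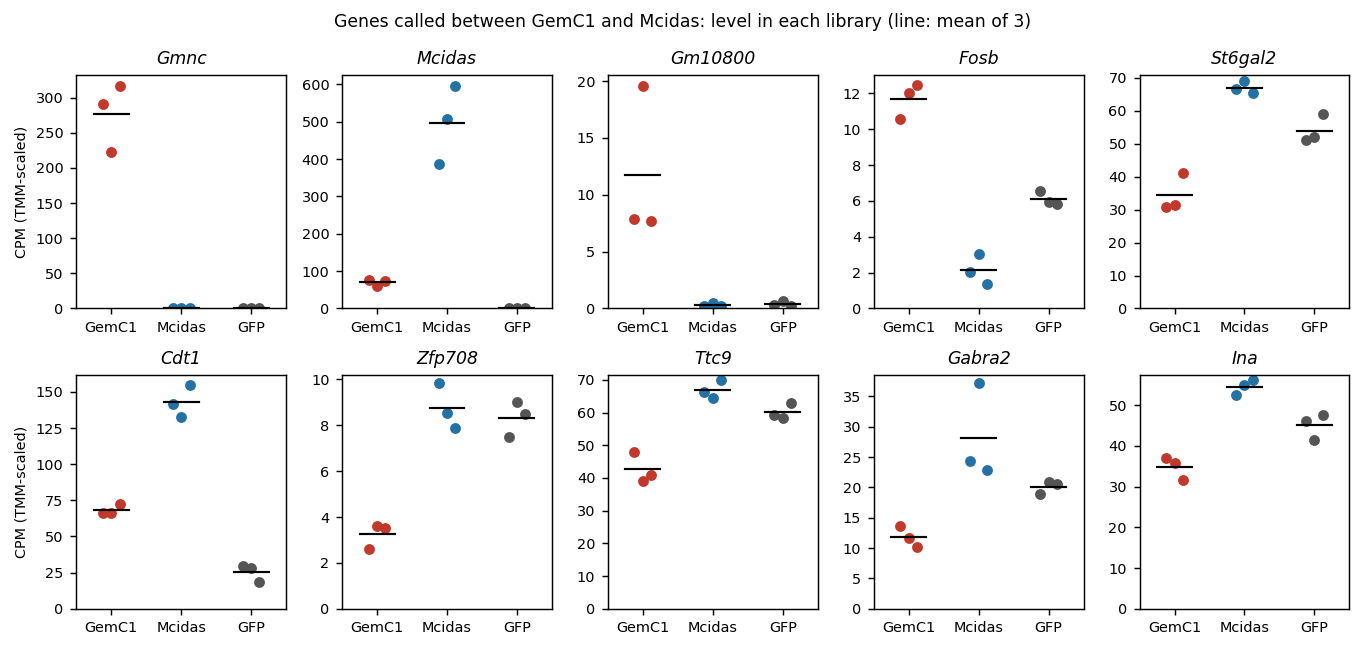
CPM of the 10 called genes in each of the 9 libraries, by group, with the line at the mean of 3 libraries and a separate axis from 0 for each gene. In Fosb, St6gal2, Zfp708, Ttc9, Gabra2, Ina and Gm10800 the GFP mean lies between those of the factors, and in Cdt1 it lies below both.

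The list of excitatory neuron genes, which holds none of the called genes, lay lower under GemC1 as well. Of 42 tested, 4 were above 0 (9.52%, against 49.4% of all genes) and the median was -0.14, with 0 called by edgeR. DESeq2 called 0 higher and 6 lower, where it called 1.27% and 2% of all genes. By library the medians were -0.07, -0.09 and -0.06 under GemC1 and 0.15, 0.04 and 0.04 under Mcidas, the highest being Mcidas replicate 1. Without that library the median was -0.09. Bhlhe22, a transcription factor of upper-layer neurons, was at 99, 62 and 60.5 CPM under GemC1 and 149.9, 168.1 and 132.8 CPM under Mcidas (-1.03 ± 0.23, adjusted p = 0.138). The microtubule protein gene Mapt was at 127 to 133.6 CPM under GemC1 and 170.9 to 179.2 CPM under Mcidas (-0.42 ± 0.07, adjusted p = 0.109). Mef2c, a transcription factor of maturing neurons, was at 17.9 to 21.6 CPM under GemC1 and 27 to 41.4 CPM under Mcidas (-0.76 ± 0.15, adjusted p = 0.118). These 3 were chosen after their values were seen, and none was called. Dcx differed by -0.16 ± 0.08 (adjusted p = 0.43).

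Radial glia genes lay the other way. Of 32 tested, 28 were above 0 (87.5%), the median was 0.23, and 8 were higher and 0 lower at an unadjusted p under 0.05 (6.37% and 6.67% of all genes). None was called by edgeR, and DESeq2 called 6 higher, as it did 1.27% of all genes. Aldoc, a glycolytic enzyme of radial glia and astrocytes chosen after its values were seen, was at 105.6, 133.1 and 107.8 CPM under GemC1, 61.8, 72.6 and 77.6 CPM under Mcidas and 82.5, 84.9 and 71.7 CPM with GFP (0.71 ± 0.12, adjusted p = 0.0703). Fabp7, the brain lipid binding protein of radial glia, also chosen after its values were seen, was at 511.1, 695.4 and 526.8 CPM under GemC1 and 314.5, 465.4 and 415.2 CPM under Mcidas (0.54 ± 0.16, adjusted p = 0.211). The defining progenitor genes Sox2 (0.27 ± 0.13, adjusted p = 0.421) and Pax6 (0.15 ± 0.14, adjusted p = 0.686) overlapped between the factors. Vim (0.23 ± 0.13, adjusted p = 0.481) and Nes (-0.03 ± 0.14, adjusted p = 0.952), also defining genes, overlapped too. Slc1a3, another defining gene, did not overlap (0.24 ± 0.11, adjusted p = 0.389). Vim, Nes and Slc1a3 were added after their values were seen. By library the radial glia medians were 0.10, 0.12 and 0.19 under GemC1 and -0.34, -0.06 and 0.03 under Mcidas, with replicate 1 the lowest. Without that library the median difference was 0.14.

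Of 19 astrocyte genes, 17 were above 0 (89.5%), with a median of 0.28 and 0 called, and without Mcidas replicate 1 the median was 0.32. The 25 intermediate progenitor genes had a median of 0.14 with 0 called, and Eomes, their defining member, differed by 0.17 ± 0.14 (adjusted p = 0.655). The 28 Notch pathway genes had a median of 0.12 and 0 calls. Their best known targets differed in sign: Hes1 was at 9.58, 6.7 and 8.61 CPM under GemC1 and 10.1, 18.9 and 12.5 CPM under Mcidas (-0.74 ± 0.23, adjusted p = 0.219), while Hes5 was at 46.2, 39.5 and 48.3 CPM under GemC1 and 29.4, 37.1 and 40.8 CPM under Mcidas (0.32 ± 0.14, adjusted p = 0.368).

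**Figure D4:**
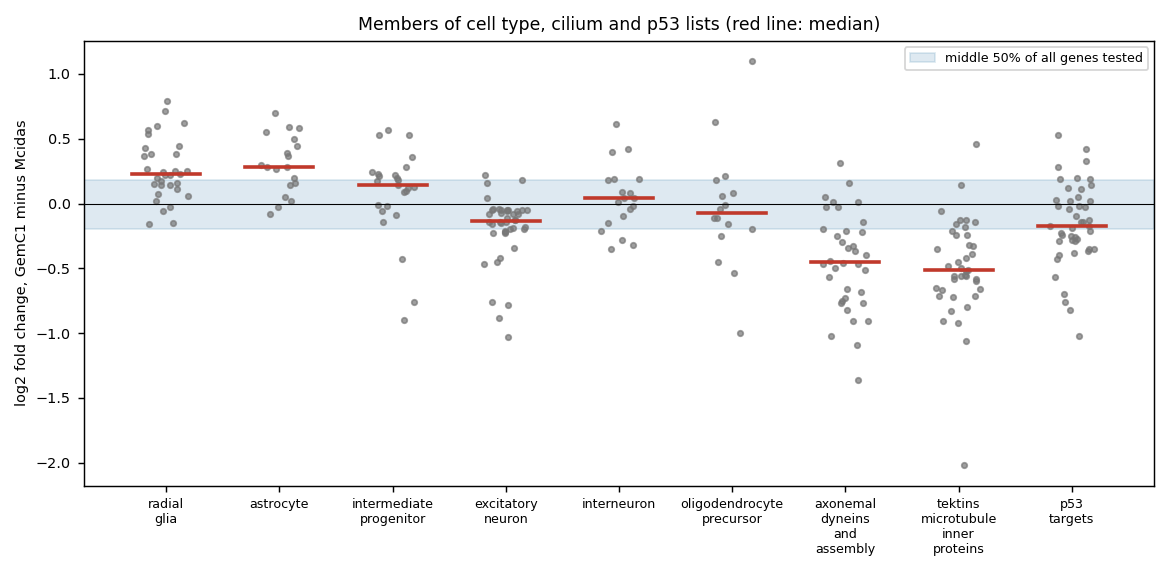
Log2 fold change, GemC1 minus Mcidas, of each tested member of 9 gene lists, with the median as a red line and the middle 50% of all genes tested (-0.20 to 0.18) shaded. The medians of radial glia (0.23) and astrocyte genes (0.28) lie above the shaded band, those of axonemal dyneins (-0.45) and tektins (-0.51) below it, and that of excitatory neuron genes (-0.14) within it.

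Zfp708 and Gm10800, both at low levels, completed the calls, and both share sequence or position with other gene models. Zfp708 (ENSMUSG00000058883), a zinc-finger protein gene, was at 2.61, 3.62 and 3.52 CPM under GemC1, 9.84, 8.52 and 7.88 CPM under Mcidas and 7.49, 9.01 and 8.48 CPM with GFP. The difference of -1.43 ± 0.20 (adjusted p = 0.029) came with a fall under GemC1 against GFP (-1.36 ± 0.20, adjusted p = 0.00137) and a Mcidas level near GFP (0.07 ± 0.19, adjusted p = 0.938). Of 18 alternatives 11 ended the call, and with a library left out its adjusted p ran from 0.0489, without Mcidas replicate 3, to 0.124, without Mcidas replicate 2. The model Gm28557, chosen after its values were seen, overlaps Zfp708 by 28578 bases on the same strand. It was counted at 75, 135 and 107 reads under GemC1, where Zfp708 had 74, 107 and 107. Under Mcidas it had 352, 281 and 202 reads, and Zfp708 had 342, 280 and 182. With counts this close, its difference of -1.35 ± 0.22 (adjusted p = 0.0607) is not a separate observation. The reads of the pair may not be separable.

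Gm10800 (ENSMUSG00000075014, chr2:98666547-98667301, - strand) falls outside the rule for named genes and is given because it was called. Its level was 7.89, 19.6 and 7.72 CPM under GemC1, 0.23, 0.517 and 0.216 CPM under Mcidas and 0.294, 0.638 and 0.18 CPM with GFP, with replicate 2 the highest in each group. The difference was 5.15 ± 0.54 (adjusted p = 0.00277). Of its 543 stretches of 31 bases, 42% also occur in other genes, 25.2% in Gm10801. Gm10801 was counted at 37, 49 and 28 reads under GemC1 and at 4, 1 and 0 reads under Mcidas (4.51 ± 1.0, adjusted p = 0.136). Gm26870 and Gm10717, which share 25.4% each, were at 10, 14 and 9 and at 7, 26 and 14 reads under GemC1. Under Mcidas they were at 0, 0 and 0 and at 5, 7 and 0 reads. No model that shares stretches had more reads under Mcidas. These models were looked up after Gm10800 was called. Reads shared by such copies cannot be assigned with certainty to 1 of them.

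Apart from the plasmid genes, no gene of the multiciliated lists was called between the factors by edgeR, and the libraries of the Mcidas group stood far apart. Foxj1, the forkhead factor of motile cilia, was at 120.7, 99.5 and 139.8 CPM under GemC1 and at 95.8, 170.1 and 183.2 CPM under Mcidas, against 0.509 to 1.52 CPM with GFP. Mcidas replicate 1 lay below every GemC1 library and replicates 2 and 3 above them. The difference was -0.32 ± 0.24 (95% interval -0.85 to 0.21, adjusted p = 0.613). Deup1, which builds the deuterosomes on which centrioles are amplified, showed the same order, at 73.3, 62.7 and 65.4 CPM under GemC1 and 57.2, 137.4 and 167.5 CPM under Mcidas (-0.84 ± 0.34, adjusted p = 0.328). The p53 relative Trp73, an early regulator of multiciliated cells, was at 163.3, 112.2 and 173.2 CPM under GemC1 and 112.8, 146.4 and 145.7 CPM under Mcidas (0.15 ± 0.24, adjusted p = 0.842).

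Of the genes next to Mcidas on chromosome 13, Ccno, a cyclin-like gene needed for centriole amplification, was at 67.6 to 80.2 CPM under GemC1 and 65.5 to 117.3 CPM under Mcidas (-0.33 ± 0.20, adjusted p = 0.525). Cdc20b, a deuterosome component, was at 18.5 to 22 CPM under GemC1 and 14.6 to 42.1 CPM under Mcidas (-0.59 ± 0.28, adjusted p = 0.408). Both overlapped. Mcidas itself did not, but a plasmid delivered it to the Mcidas group, so its counts do not measure the locus alone. Myb, a cell cycle factor that multiciliated precursors reuse, did not overlap, at 37.4, 47 and 45 CPM under GemC1 and 48.5, 52.7 and 67.2 CPM under Mcidas. Its difference of -0.38 ± 0.14 was not called (adjusted p = 0.276). The centriole kinase Plk4 differed by -0.29 ± 0.13 (adjusted p = 0.356).

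The cilium gene lists leaned lower under GemC1, with 0 calls by edgeR in each. Of 36 axonemal dynein and dynein assembly genes 5 lay above 0 (13.9%), with a median of -0.45. The 37 radial spoke, central pair and nexin genes had a median of -0.44 with 3 above 0, and the 40 tektin and microtubule inner protein genes a median of -0.51 with 2 above 0. The differences were smaller in the 17 transcription factors of the programme (-0.13), the 40 deuterosome and procentriole genes (-0.16) and the 52 intraflagellar transport and BBSome genes (-0.14). DESeq2 called 0 higher in each list, and 3 dynein, 2 deuterosome and 4 transport genes lower (1.27% and 2% of all genes). In the other lists it called 0 lower. At an unadjusted p under 0.05, 8 dynein, 3 radial spoke, 5 tektin, 2 transcription factor, 9 deuterosome and 7 transport genes were lower. Only 1 transport gene was higher (6.67% of all genes were lower and 6.37% higher). Against the shared GFP libraries, the medians of the dynein list were 2.71 under GemC1 and 3.15 under Mcidas, with 28 and 31 of the 36 genes called higher (3.86% and 4.03% of all genes). Those of the tektin list were 4.44 and 4.84, with 34 and 33 of the 40 called higher. Ttc25, a docking protein of outer dynein arms chosen after its values were seen, was the dynein gene with the smallest p, at 6.83, 6.16 and 7.29 CPM under GemC1 and 8.63, 17.1 and 17.6 CPM under Mcidas (-1.09 ± 0.27, adjusted p = 0.159).

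These list medians hid opposite libraries within the Mcidas group. As deviations from the mean of the 6 libraries, the tektin list stood at -0.11, -0.26 and -0.06 under GemC1 and at -0.64, 0.49 and 0.77 under Mcidas. The dynein list stood at -0.23, -0.25 and -0.16 under GemC1 and at -0.51, 0.56 and 0.62 under Mcidas. The GemC1 libraries were close to each other and lay between Mcidas replicate 1 and the other two. Without Mcidas replicate 1, the median differences were -0.80 for tektins, -0.76 for radial spokes and -0.70 for dyneins, and the number of genes called over all genes was 12, with 4 higher and 8 lower.

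**Figure D5:**
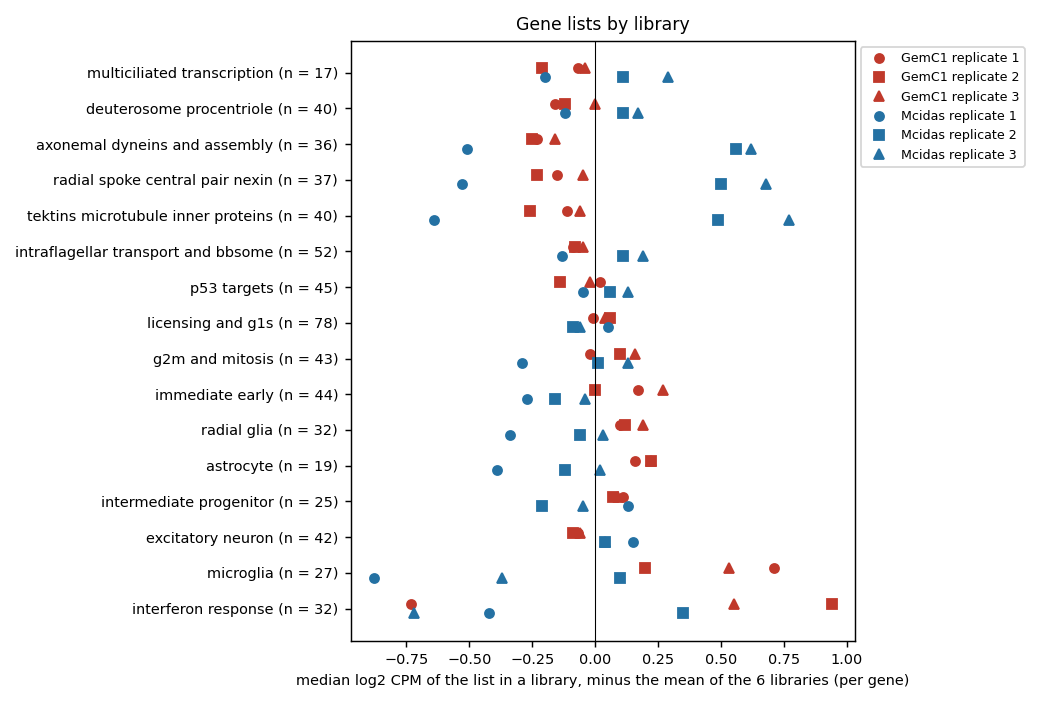
Median log2 CPM of 16 gene lists in each GemC1 (red) and Mcidas (blue) library, as the deviation from the mean of the 6 libraries for each gene, with the marker shape giving the replicate. In the dynein, radial spoke, tektin and intraflagellar transport lists Mcidas replicate 1 is lowest and replicates 2 and 3 are highest with the GemC1 libraries between them, and in the immediate early, radial glia and astrocyte lists the GemC1 libraries lie on the right.

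Apart from the licensing gene Cdt1, genes of the p53 response and of the cell cycle were not called between the factors. Cdkn1a, the gene of p21, an inhibitor of cell cycle kinases, was at 50.4, 33.4 and 46.3 CPM under GemC1 and 37, 56.6 and 65.2 CPM under Mcidas, with GFP at 2.58 to 4.23 CPM. The groups overlapped, Mcidas replicate 1 again being the lowest of its group, and the difference was -0.29 ± 0.22 (95% interval -0.75 to 0.18, adjusted p = 0.608). Pidd1, which assembles the PIDDosome upstream of p53, did not overlap, at 127.8, 113.2 and 130.6 CPM under GemC1 and 135.7, 162.9 and 184.6 CPM under Mcidas (-0.38 ± 0.12, adjusted p = 0.237). Trp53 was at 118.3 to 123.4 CPM under GemC1 and 99.8 to 109.4 CPM under Mcidas (0.19 ± 0.08, adjusted p = 0.34).

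Of 45 p53 target genes 14 lay above 0 (31.1%), with a median of -0.17. Against GFP the medians of that list were 0.24 under GemC1 and 0.23 under Mcidas. The 57 DNA damage and repair genes had a median of 0.02, the 43 G2/M genes 0.07 and the 20 CDK inhibitor and G1 regulator genes 0.10, with 0 calls in each. The G2/M median was -0.05 without Mcidas replicate 1. The proliferation marker Mki67 was at 87.2 to 131.1 CPM under GemC1 and 99.1 to 135.4 CPM under Mcidas (-0.02 ± 0.15, adjusted p = 0.978), a difference that turned positive, to 0.03, with the GC trend removed. The mitotic cyclin Ccnb1 differed by 0.03 ± 0.14 (adjusted p = 0.947).

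The GFP libraries show on which side of the background the called genes lay. Leaving out the plasmid genes, the GFP mean was between the factors in 7 of 8 called genes (87.5%) and below both in Cdt1. Among all genes tested it was between them in 32.5%, and among the 2551 with an unadjusted p under 0.05 in 64.1%. In 6 of the 8 (St6gal2, Zfp708, Gabra2, Ttc9, Ina and Gm10800) GFP was nearer Mcidas, and in Fosb and Cdt1 it was nearer GemC1. GFP was nearer Mcidas in 56.7% of all genes and in 64.5% of those with an unadjusted p under 0.05. The GFP libraries share their year with GemC1, and the part of the year in any of these values was not tested.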

How the data were processed

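RNA from sorted cells was measured in 9 libraries (SMART-Seq v4 amplification and Nextera XT, per the labels' protocols). The authors deposited 9 tables of raw counts of reads, 1 row for each Ensembl gene. The build mm10, DESeq2 1.8.1, HTSeq 0.5.3 and STAR 2.5.2b appear in the submitters' processing notes with no role, and the strand setting is not given in the sources used here. GENCODE M21 (GRCm38) gave symbols and positions for 53274 of 53379 identifiers, and 0 rows named no gene. Unmatched identifiers held at most 0.0676% of a library.

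The counts were tested with edgeR 4.0.16 in R 4.3.3: filterByExpr (minimum count 10, minimum total 15), TMM scaling, a robust quasi-likelihood fit with group as the only term over all 9 libraries, and two-sided tests with Benjamini-Hochberg adjustment. Differences are on the log2 scale, and their standard errors (SE) were taken from the quasi-likelihood F. The residual degrees of freedom were 6. No 2 replicates were alike enough to be 1 library (chi-square over its degrees of freedom at least 13). The fitted value for a gene near 0 in 1 group depends on the prior count. A floor of 3 counts is between 0.0736 and 0.13 CPM.

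The members and the 30 gene lists were chosen with earlier results of these data known. Named genes are Gmnc, Mcidas, Fosb and Cdt1, the 10 highest and 10 lowest called genes whose average log2 CPM reached 3 (or 1, for want of genes), with a symbol that is not a placeholder and with no overlap, the 4 called members of each list with the smallest adjusted p, and a set of 32 regulators and markers. Any other gene is marked as picked once its values were seen. Alternatives were DESeq2 1.42.0, its size factors in edgeR, no or a stricter low-count filter (1 CPM in 3 libraries), a 2-fold minimum, only the 6 libraries, the replicate block, removal of the GC trend, counts without plasmid, mitochondrial and globin genes, and each library left out. The main fit and its contrast of GemC1 with Mcidas were tested on simulated data. The alternatives and the other steps were not.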

Additional observations from a re-analysis of the deposited data

How the results depend on the processing

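Gmnc, Mcidas, Fosb and Gm10800 kept their call in each alternative that tested them. The total of 10 calls became 195 with no low-count filter (66 higher and 129 lower under GemC1), 498 with DESeq2 (193 and 305) and 5 with only the 6 libraries (2 lower). It was 5 without plasmid, mitochondrial and globin genes (3 lower), where 2 of the 10, Gmnc and Mcidas, were not tested. With a 2-fold minimum it was 7 (3 higher and 4 lower). The cause of these changes was not tested. Leaving out 1 library gave 4 to 13 calls in all, 3 to 5 higher and 1 to 8 lower, and 6 calls without any 1 GFP library. The deviations of same-numbered GemC1 and Mcidas libraries correlated at 0.00614, -0.0346 and 0.0244, against -0.065 to 0.0574 for pairs with different numbers. The labels do not say whether equal numbers mark a shared litter or day. With 3 libraries a group, these correlations cannot decide it. With the replicate block 6 genes were called (3 lower), 5 of them among the 10. The calls of Cdt1 (adjusted p = 0.109), Zfp708, Gabra2, Ttc9 and Ina were not made under it, and with the block and the GC trend removed 4 were lower. Small differences changed sign, over the libraries left out from -0.00 to 0.20 for E2f4 (-0.00 without GemC1 replicate 3), -0.00 to 0.35 for E2f5 (-0.00 without GemC1 replicate 2), -0.21 to 0.02 for E2f8 (0.01 without GemC1 replicate 2, 0.02 without Mcidas replicate 2), -0.13 to 0.14 for Mki67 (0.14 without GemC1 replicate 1, 0.12 without Mcidas replicate 3) and -0.15 to 0.15 for Ccnb1 (-0.01 without GemC1 replicate 3, -0.15 without Mcidas replicate 1). With the GC trend removed Mki67 was 0.03, also with the replicate block. Depth limits low genes: 3 counts are 0.13 CPM in the shallowest library.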

Other observations

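Several genes just outside the threshold, chosen after their values were seen, belong to no list described above. Dbx1, a homeobox factor of ventral and border progenitors, was at 6.31, 2.88 and 3.25 CPM under GemC1, 12.3, 13.6 and 15.1 CPM under Mcidas and 0.499, 0.393 and 0.689 CPM with GFP. It rose against GFP under both factors, by 2.98 ± 0.34 (adjusted p = 0.000189) and 4.70 ± 0.35 (adjusted p = 4.91e-06), and the difference between them was -1.72 ± 0.29 (adjusted p = 0.0884). Paqr4 had the same order, at -0.52 ± 0.11 (adjusted p = 0.119). Hist2h2be, a histone H2B gene, was at 195.1, 148.5 and 200.1 CPM under GemC1 and 72.6, 94 and 102.6 CPM under Mcidas, with GFP at 284.4, 188.3 and 162.2 CPM (1.02 ± 0.20, adjusted p = 0.118). Hist2h2be fell under Mcidas against GFP (-1.24 ± 0.20, adjusted p = 0.00242) and was not called under GemC1 (-0.22 ± 0.20, adjusted p = 0.584). Hist1h2bf and Hist2h2bb, also H2B genes, differed between the factors by 1.17 ± 0.23 and 1.07 ± 0.23 (adjusted p = 0.118 and 0.133). The H2B-GFP reporter carries H2B sequence too, and whether its reads were counted on these genes was not tested. The ribosomal protein gene Rpl26 was at 14.6 to 31.5 CPM under GemC1 and 7.6 to 8.44 CPM under Mcidas (1.36 ± 0.25, adjusted p = 0.118).

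Some genes with large mean differences, chosen after their values were seen, varied as much within a group as between groups, and none was called. The splicing factor gene Cwc22 was at 207.1, 190 and 31.9 CPM in the Mcidas libraries, 27.5 to 33.7 CPM in the GemC1 libraries and 43.7 to 78.5 CPM with GFP. The cystine transporter gene Slc7a11 was at 63.8, 54.2 and 34.4 CPM under GemC1, 26.6, 4.68 and 0.736 CPM under Mcidas and 1.82, 8.83 and 54.4 CPM with GFP. Padi4, a peptidylarginine deiminase gene, was at 6.02, 0.0338 and 6.24 CPM under GemC1, 0, 0.122 and 0.13 CPM under Mcidas and 0.558, 6.72 and 1.26 CPM with GFP.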
